A study of Mus musculus with 5 samples.

Results

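The miR-15, miR-16, miR-195 and miR-497 family is a group of microRNAs, short non-coding RNAs, that share a seed, the stretch of bases through which a microRNA pairs with its target mRNAs. The family was examined in mouse bone marrow-derived dendritic cells (BMDCs) given flagellin. Its members were chosen by name: every mature mouse miRNA on the array called miR-15a, miR-15b, miR-16, miR-16-1, miR-16-2, miR-195 or miR-497, either arm. They were 11 of the 1122 mouse miRNAs on the array, 5 of them 5p arms (the guide strands in this family) and 6 of them 3p arms (the passenger strands).

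Both groups of arrays came from BMDCs of C3H/HeJ mice, a strain known for a defective TLR4, 6 weeks old per the study's methods. Marrow cells had been grown for 7 days with rmGM-CSF and rmIL-4 and then sorted on magnetic beads for CD11c. The treated group (FliC in the labels, 3 arrays) received flagellin, the bacterial protein sensed by TLR5, at 100 ng/ml for 24 h, and the other group (mock in the labels, 2 arrays) was kept for 24 h in medium alone. The labels do not say whether arrays of a group came from separate cultures, so p-values measure only the spread between these arrays, which may be technical. The cells are a cultured, cytokine-grown population, and in such bulk RNA fewer cells of a type and less RNA per cell cannot be told apart.

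As background, the family is encoded in several clusters of paired hairpins. miR-15a and miR-16-1 lie together in the non-coding host gene Dleu2, miR-15b and miR-16-2 lie together in Smc4, and miR-195 and miR-497 form a cluster of their own. The guides are best known for repressing cyclins, cyclin-dependent kinases and the survival factor BCL2, and the cluster in Dleu2 for its loss in chronic lymphocytic leukaemia. miR-322 and miR-503, encoded together on the X chromosome, are usually counted as relatives of the family.

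The guide sequences are shown first because all 5 carry the same seed, so that the array tells them apart mainly by the bases after it. They were taken from RefSeq (build GRCm38.p6), in which miR-195 and miR-497 of the array appear as miR-195a and miR-497a, and all 11 members matched. Each line runs 5′ to 3′ in RNA letters, with the seed (bases 2 to 8) in capitals.
mmu-miR-15a-5p: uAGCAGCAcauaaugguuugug
mmu-miR-15b-5p: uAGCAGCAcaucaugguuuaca
mmu-miR-16-5p: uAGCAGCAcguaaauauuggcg
mmu-miR-195-5p: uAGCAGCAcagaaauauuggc
mmu-miR-497-5p: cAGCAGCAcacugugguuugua
mmu-miR-322-5p: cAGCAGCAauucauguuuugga
mmu-miR-503-5p: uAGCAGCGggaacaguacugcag

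The 5 family guides and miR-322-5p carried the identical seed, and miR-503-5p differed from that of miR-16-5p by A8G, counted from the 5′ end. In all, 10 of the 1679 mature mouse miRNAs in the RefSeq table (0.596%) had that seed. Position by position from the 5′ end, miR-16-5p and miR-195-5p shared 19 of 21 bases, miR-15a-5p and miR-15b-5p 18 of 22, and miR-15a-5p and miR-497-5p 17 of 22, whereas miR-16-5p and miR-497-5p shared 11 of 22. By sequence beyond the seed, miR-195-5p was therefore nearest to miR-16-5p and miR-497-5p nearest to miR-15a-5p.

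In GRCm38.p6 the miR-15a guide lay at chr14:61632075-61632096 on the minus strand and a copy of the miR-16 guide at chr14:61631936-61631957, both within the span of Dleu2, a lncRNA gene. The miR-15b guide lay at chr3:69009775-69009796 on the plus strand and the other copy of the miR-16 guide at chr3:69009918-69009939, both within the span of Smc4, which codes for a condensin subunit. Because both copies have the same mature sequence, the array's miR-16-5p signal is the sum over the clusters. The miR-497 guide lay at chr11:70234730-70234751 and the miR-195 guide at chr11:70235062-70235082, on the plus strand, with no gene other than miRNA hairpins spanning them in the table. The relatives were at chrX:53054306-53054327 (miR-322-5p) and chrX:53054027-53054049 (miR-503-5p).

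The passenger arms carried other seeds, and the only passenger detected in these cells, mmu-miR-15b-3p, reads as follows, again with bases 2 to 8 in capitals.
mmu-miR-15b-3p: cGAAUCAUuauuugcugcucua

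Each miRNA was read by 2 or 4 probes, complementary to a stretch that ends at its 3′ end and in some cases covers all or nearly all of it. Its total gene signal, an intensity, is the sum over probes that exceed 3 times their own error. Where no probe did so the miRNA counts as undetected. Of the 11 members, 4 were detected on all 5 arrays (miR-15a-5p, miR-15b-5p, miR-16-5p and miR-15b-3p), miR-195-5p on 4, miR-497-5p on 1, and the remaining 5, all of them passengers, on none. Between 292 and 317 mouse miRNAs were detected per array, no spot was saturated, and all arrays lay on 1 slide. The medium arrays occupied a slide column of their own, so that column and treatment cannot be told apart. For scaling, the divisor on each array was the 75th percentile of the 277 mouse miRNAs seen on every array (between 211 and 293), and differences are on the log2 scale of that scaled signal.

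In these dendritic cells the guides of the miR-15/16 clusters were among the brighter miRNAs, and none of them passed the test between flagellin and medium. All 3 had a mean about 1.1-fold higher with flagellin, with confidence intervals that included no difference. The guides of the cluster of miR-195 and miR-497 were at the edge of detection, and a single flagellin array held their highest signals. Of the 5 members tested, limma's test gave 0 an adjusted p under 0.05, against 2 of all 307 miRNAs tested (0.651%). At an unadjusted p under 0.05 the count was 0 of 5 members and 18 of 307 miRNAs. The methods' t-test, taken on the scaled values, also gave 0 members an adjusted p under 0.05. The paper's own rule, an unadjusted p with a cut on fold change, was not run.

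miR-16-5p, the guide made from both miR-15/16 clusters, had total gene signals of 4956, 4710 and 3302 on flagellin arrays 1, 2 and 3 and of 4212 and 3646 on medium arrays 1 and 2. It ranked 11th by signal on each of the 5 arrays. Scaled, the log2 values came to 4.14, 4.01 and 3.97 on the flagellin arrays against 3.90 and 3.89 on the medium arrays, so that every flagellin array lay above both medium arrays. Such a separation was found for 35 of the 307 miRNAs tested (11.4%), and the opposite one, below both medium arrays, for 27 (8.79%). Of the 5 tested members, miR-16-5p alone had the former, and none had the latter. The flagellin mean was 4.04 ± 0.09 (SD, n = 3), and the medium mean was 3.89 ± 0.01 (SD, n = 2). The difference of 0.14 (SE 0.08, 95% confidence interval −0.08 to 0.37) did not pass limma's test (adjusted p = 0.859). On a linear scale the interval ran from 0.947-fold to 1.29-fold. The separation depended on the scaling: without it the flagellin array 3 had the lowest of the 5 signals. After quantile normalization the difference was 0.00, an outcome fixed in advance by the equal rank on every array.

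miR-15b-5p, the partner of miR-16-2 in Smc4, had total gene signals of 2734, 2643 and 1724 with flagellin and of 2203 and 2046 with medium. Scaled, these were log2 values of 3.28, 3.17 and 3.03 against 2.96 and 3.06. Flagellin arrays 1 and 2 lay above both medium arrays, while array 3 lay between them. The difference was 0.15 (SE 0.10, 95% confidence interval −0.12 to 0.43, limma adjusted p = 0.859).

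miR-15a-5p, the partner of miR-16-1 in Dleu2, had total gene signals of 1914, 1898 and 1138 with flagellin and of 1543 and 1420 with medium. Scaled, these were log2 values of 2.77, 2.70 and 2.43 against 2.45 and 2.53. Here flagellin array 3 was the lowest of the 5, and arrays 1 and 2 were the highest. The difference was 0.14 (SE 0.13, 95% confidence interval −0.19 to 0.48, limma adjusted p = 0.859). Without flagellin array 3 it was 0.24 (limma, adjusted p = 0.179), the lowest adjusted p of any family member under any alternative. Without flagellin array 1 it was 0.075 (limma, adjusted p = 0.998). Leaving out flagellin array 1 likewise lowered the differences of miR-15b-5p and miR-16-5p, to 0.093 and 0.094.

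**Figure D1:**
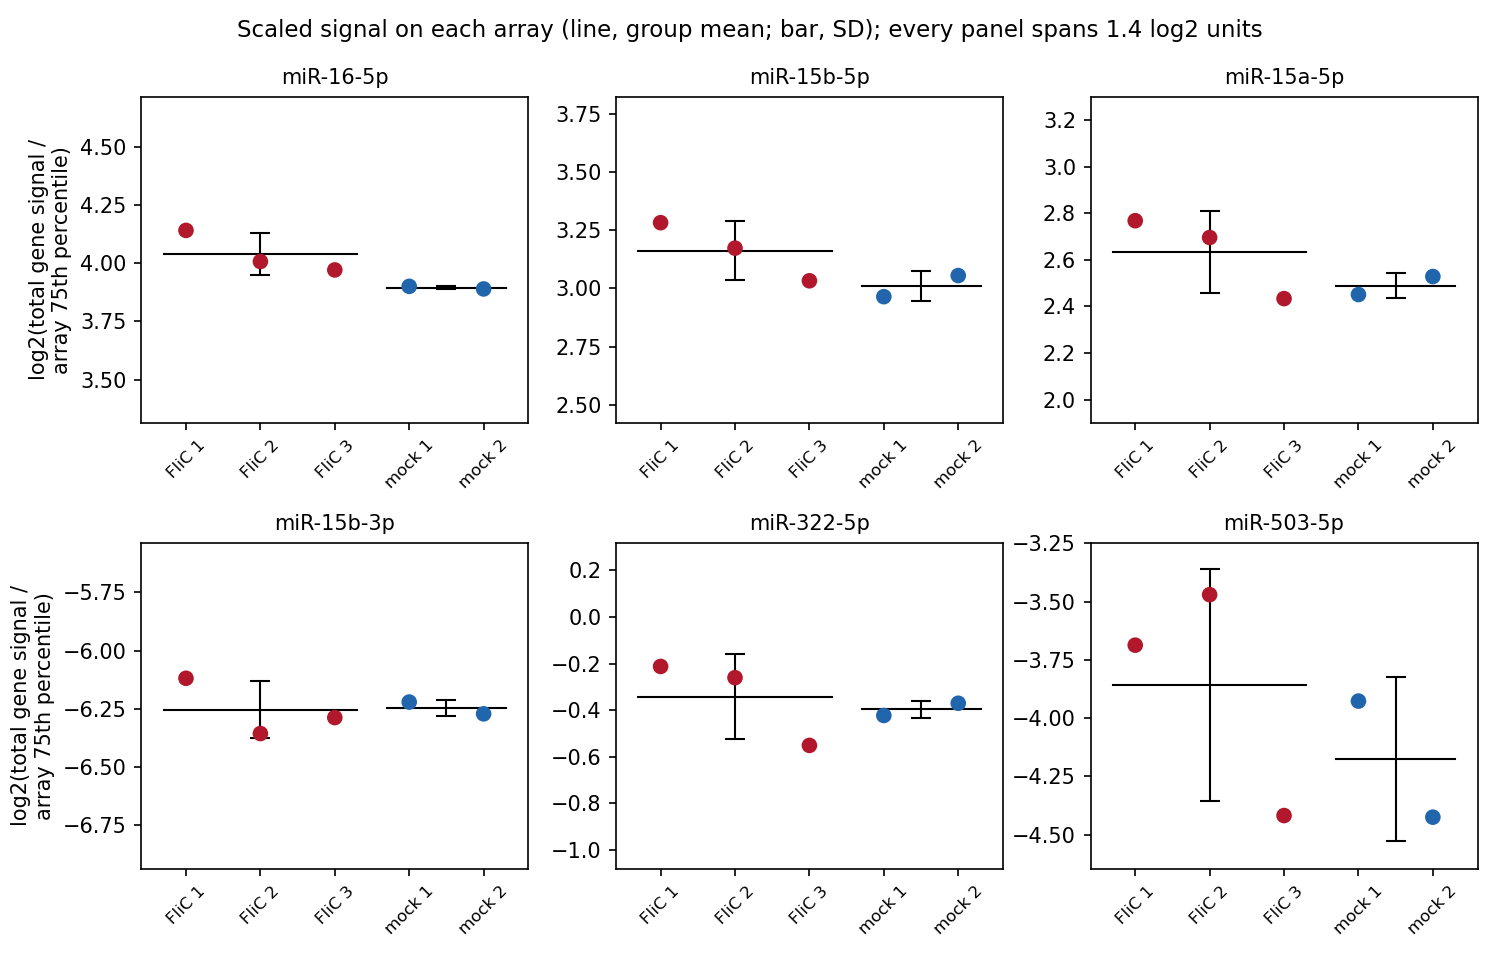
Scaled total gene signal (log2, vertical axis) on each of the 3 flagellin arrays (FliC, red) and 2 medium arrays (mock, blue) for the 4 members detected on all 5 arrays and for the relatives miR-322-5p and miR-503-5p. Lines are group means, bars are SDs and each panel spans the same log2 range. Flagellin array 3 lies with the medium arrays for miR-15a-5p and miR-15b-5p, and miR-16-5p is the only panel in which the groups do not overlap.

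The order of the signals was the same on all 5 arrays, with miR-16-5p above miR-15b-5p and miR-15b-5p above miR-15a-5p. Their ranks among detected miRNAs were 11, between 22 and 25, and between 27 and 32. Scaled, neighbours in this order did not overlap between arrays: miR-15a-5p reached 6.81 at most and miR-15b-5p was at 7.81 or above. Unscaled, miR-15a-5p on flagellin array 1 (1914) exceeded miR-15b-5p on flagellin array 3 (1724). The order is one of signals and not of copies, since probes of different sequence bind with different strength.

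Ratios between the guides were also taken. Within an array, where scaling cancels, the miR-15a-5p signal was 0.386, 0.403 and 0.345 of that of miR-16-5p with flagellin and 0.366 and 0.389 of it with medium. The miR-15b-5p signal was 0.552, 0.561 and 0.522 of that of miR-16-5p with flagellin and 0.523 and 0.561 with medium. In both ratios the groups overlapped, and the mean log2 ratios of the groups differed by −0.0019 and 0.0081, against SDs between 0.05 and 0.12. These ratios between guides were chosen after the values were seen, and both had an exact two-sided permutation p of 1 (n = 3 and 2).

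The 6 probes behind these 3 guides were read in 15 to 20 usable spots each. The spread between spots of a probe on an array (CV) ran from 1.93% to 18.2%. The 6 probes had log2 differences between 0.13 and 0.16, so both probes of each guide gave the same sign and nearly the same size. In exact two-sided permutation tests over the 10 divisions of 3 arrays against 2, the smallest p among the 7 family probes above their limit on all arrays (n = 3 and 2) was 0.2. The design cannot give a p below 0.1.

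Among the passengers, miR-15b-3p, the other arm of the miR-15b hairpin, had total gene signals of 4.05, 3.58 and 2.70 with flagellin and of 3.78 and 3.19 with medium. Every one of these rested on a single probe of 22 bases, which reads the whole mature sequence. The other probes of the miRNA, of 19, 20 and 21 bases, were below 3 errors on every array. Scaled, the values ran from −6.36 to −6.12 on the log2 scale, just above the common floor of −6.37 set for undetected miRNAs. The groups overlapped, and the difference was −0.01 (SE 0.10, 95% confidence interval −0.27 to 0.26, limma adjusted p = 0.990). Its sign turned under several alternatives, so no direction can be given.

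Only the miR-15b hairpin had both arms detected on all 5 arrays. Its guide signal was 676, 739 and 639 times the passenger signal with flagellin and 582 and 642 times with medium. The flagellin array 3 lay between the medium arrays. The log2 ratio averaged 9.42 ± 0.11 (SD, n = 3) in the flagellin group, and 9.26 ± 0.10 (SD, n = 2) in the medium group. The difference of 0.16 had an exact two-sided permutation p of 0.3, the only guide-to-passenger ratio tested.

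The 5 undetected passengers were miR-15a-3p, miR-16-1-3p, miR-16-2-3p, miR-195-3p and miR-497-3p. Their 14 probes had signals of at most 2.49, and the highest stood at 2.96 errors, just under the limit of 3, on a probe of miR-16-1-3p in flagellin array 3. The limit of 3 errors lay between 2.19 and 2.80 for the probes of miR-15a-3p and miR-16-1-3p and between 4.39 and 5.45 for those of miR-16-2-3p, miR-195-3p and miR-497-3p, and a probe signal below its limit would not have been detectable. Some of these probes are short. Those of miR-16-1-3p read from 12 to 15 bases, and those of miR-195-3p 13 and 14.

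**Figure D2:**
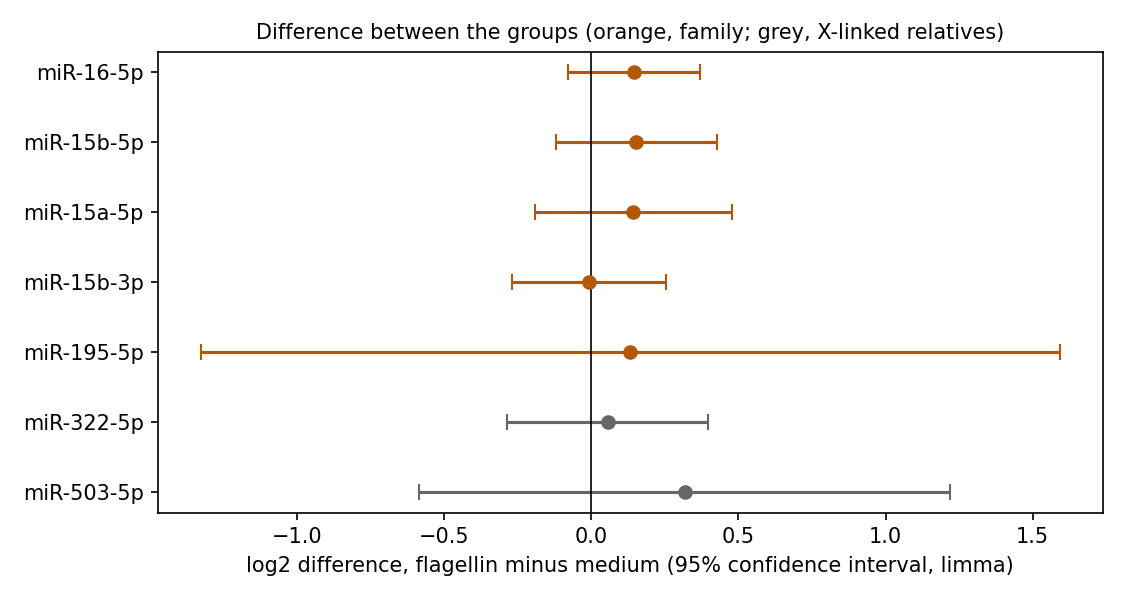
Log2 difference between flagellin and medium (horizontal axis, points) with its 95% confidence interval from limma for the 5 tested family members (orange) and for miR-322-5p and miR-503-5p (grey). Every interval includes 0, from −0.08 to 0.37 for miR-16-5p to −1.33 to 1.59 for miR-195-5p.

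In the cluster of miR-195 and miR-497, miR-195-5p passed on its 19-base probe alone. That probe had signals of 6.89, 12.4 and 4.11 with flagellin and of 6.16 and 5.06 with medium, or 3.90, 5.67, 2.59, 3.86 and 3.03 errors in the same order. It therefore missed the limit on flagellin array 3 and was barely over it on medium array 2. Flagellin array 2 was the highest and array 3 the lowest, with both medium arrays between. With flagellin array 3 set to the floor, the scaled log2 difference was 0.13 (SE 0.55, 95% confidence interval −1.33 to 1.59, limma adjusted p = 0.966). It was −0.30 without flagellin array 2 and 0.60 without flagellin array 3, so the sign rested on single arrays.

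miR-497-5p, encoded next to miR-195, passed on flagellin array 2 alone. Its 20-base probe had signals of 4.35, 8.97 and 2.47 with flagellin and of 3.92 and 3.43 with medium, or 2.58, 4.48, 1.59, 2.58 and 2.11 errors. The order of the arrays was that of miR-195-5p, though 4 of the 5 values were below the limit. These signals are unscaled, and the summed signal of all detected miRNAs had the same order. That sum ran from 234462 on flagellin array 2 to 181794 on flagellin array 3. Being detected on 1 array only, it was not tested. Since neither guide was detected on all 5 arrays, 0 pairs of a miR-15/16 guide with a guide of the other cluster qualified for a within-array test.

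**Figure D3:**
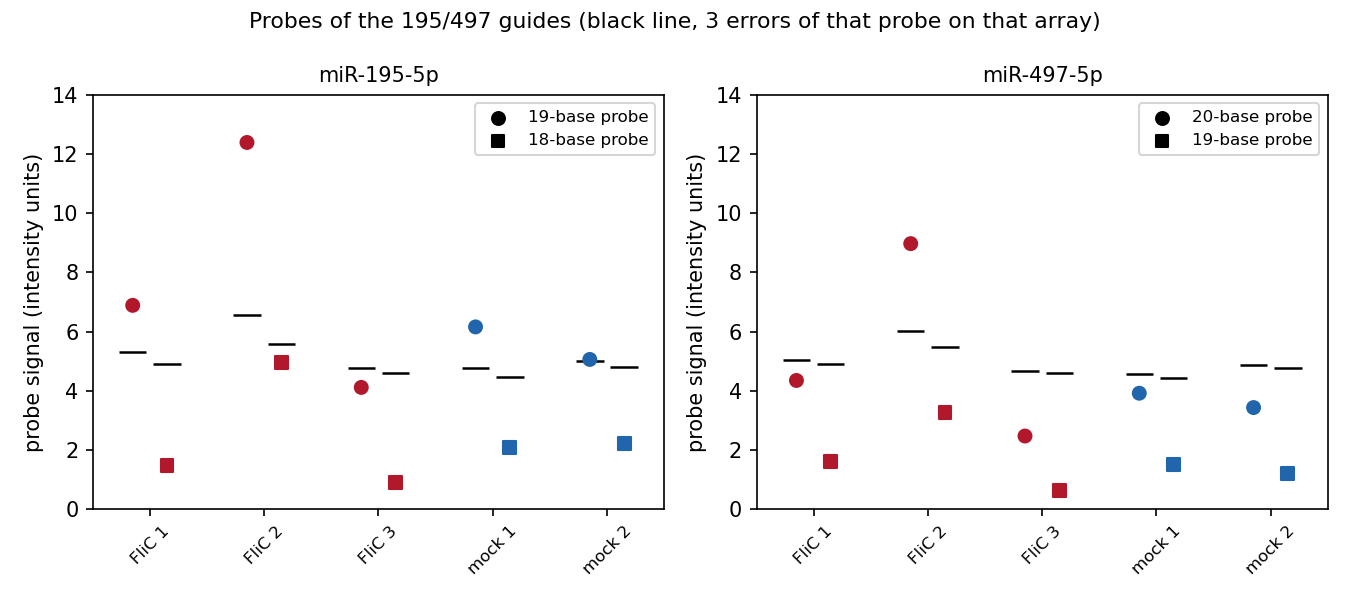
Signals (intensity units, vertical axis) of the longer probe (circles) and the shorter probe (squares) of miR-195-5p and miR-497-5p on each flagellin array (red) and medium array (blue). Black lines mark 3 errors of that probe on that array, the limit of detection, which miR-497-5p exceeds on flagellin array 2 alone and miR-195-5p on 4 arrays.

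The stretch that the longer probe of miR-195-5p reads, bases 3 to 21, differs from miR-16-5p at 2 positions, A10G and G11U, counted from 1 at the 5′ end with the base of miR-195-5p first. In the arrays' order, flagellin 1 to 3 and then medium 1 and 2, the signal of this probe was 0.139%, 0.263%, 0.125%, 0.146% and 0.139% of the total gene signal of miR-16-5p on the same array. On the 4 arrays other than flagellin array 2 it thus lay between 0.125% and 0.146%, the lowest of them from the signal below the limit on flagellin array 3. The longer probe of miR-497-5p reads bases 3 to 22 and differs from miR-15a-5p at 4 positions, C11U, U12A, G13A and A22G. On flagellin array 2 its signal was 0.473% of that of miR-15a-5p, and on the other arrays it was below its own limit, so no share is given. The part of the brighter guides in these signals was not tested.

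Flagellin array 2 also held the highest signals of other dim miRNAs, named here from lists of lineage miRNAs. miR-126-3p, typical of endothelial cells, had signals of 12.6, 29.1 and 5.60 with flagellin and of 12.5 and 5.04 with medium. miR-199a-3p, typical of stromal cells, had 41.3 on flagellin array 2, 5.58 on flagellin array 1 and 5.59 on medium array 1, and was not detected on the other two. miR-451, typical of red blood cells, had 17.0 on flagellin array 2 and 5.29 on flagellin array 1 and was not detected elsewhere. Within the stromal, endothelial and erythroid lists miR-10b-5p was the exception, at 14.8 on flagellin array 2 and slightly higher on medium array 1. Outside them, the epithelial miR-200c-3p went the other way. It had 5.98 on flagellin array 1 and 5.60 on medium array 1, and was not detected on flagellin array 2.

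By list, the summed scaled signal of the stromal and smooth muscle miRNAs (1 of 6 detected on all arrays, 3 on none) ran from 0.0528 to 0.231 with flagellin and from 0.0487 to 0.0731 with medium. That of the endothelial miRNAs (1 of 2 on all arrays, 1 on none) ran from 0.0266 to 0.0993 and from 0.0205 to 0.0444, and that of the erythroid miRNAs (0 of 3 on all arrays, miR-144-3p and miR-144-5p on none) from 0 to 0.0579 and at 0. All 3 maxima fell on flagellin array 2, but they largely repeat the single miRNAs given above. The erythroid sum was miR-451 alone and the endothelial sum miR-126-3p alone, and miR-199a-3p made up 0.141 of the stromal maximum. The part of these lists in the signals of miR-195-5p and miR-497-5p was not tested. Epithelial miRNAs (0 of 6 on all arrays, 5 on none) reached 0.0213, muscle miRNAs (1 of 4, miR-206-3p) stayed between 0.0554 and 0.0704, and the neural miR-124-3p and miR-9-5p and the hepatic miR-122-5p were detected on no array.

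**Figure D4:**
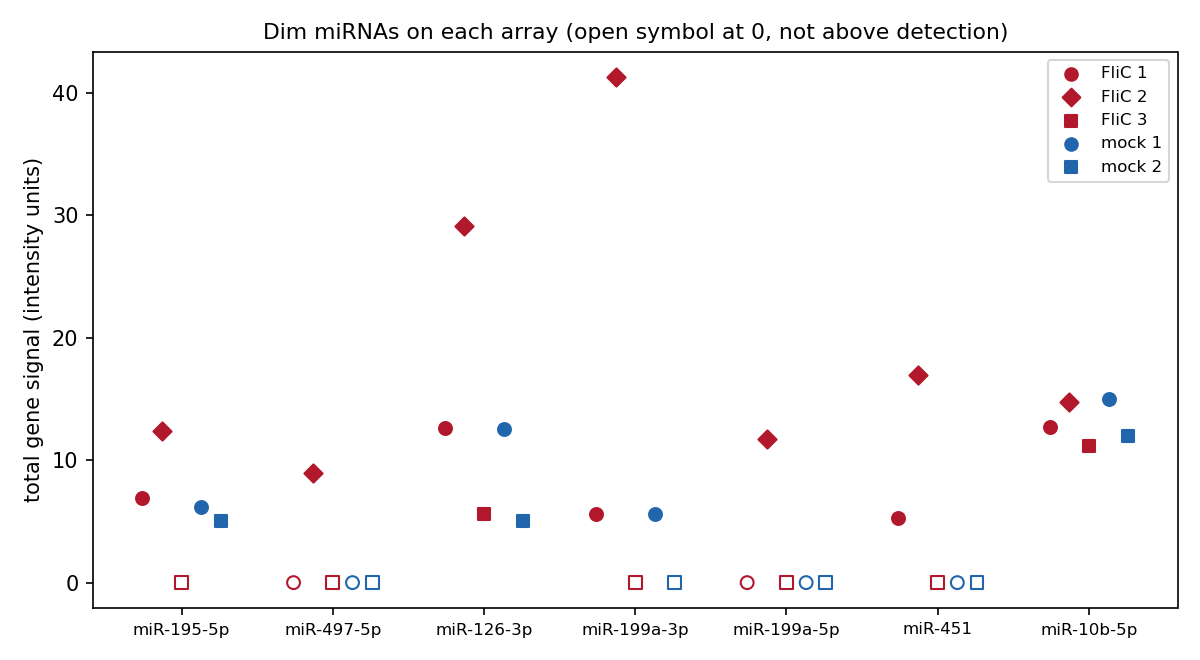
Total gene signal (intensity units, vertical axis) on each array for miR-195-5p, miR-497-5p and 5 dim miRNAs of the stromal, endothelial and erythroid lists, picked after their values were seen. Flagellin array 2 (diamonds) is the highest for each of them except miR-10b-5p, with 12.4 for miR-195-5p and 41.3 for miR-199a-3p.

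Most of the haematopoietic miRNAs listed were detected on every array, with signals from 88.6 to 131 for miR-146a-5p up to 21574 to 34155 for miR-21-5p. Of the 7 haematopoietic and myeloid miRNAs listed, 6 were detected on all 5 arrays, among them miR-223-3p, the myeloid miRNA, at 2499 to 3464 with flagellin and 2770 and 3118 with medium. The lymphocyte-enriched miR-150-5p was detected on none. The summed scaled signal of the list was between 124 and 143 with flagellin and 130 and 132 with medium, but miR-21-5p alone made up 102 to 119 of it. Within the list, scaled signals on every flagellin array lay above both medium arrays for miR-155-5p, miR-146a-5p and miR-223-3p. Those of miR-155-5p were 2.97, 2.69 and 2.95 against 2.12 and 2.37. Those of miR-146a-5p were 0.466, 0.412 and 0.427 against 0.353 and 0.360. For the other detected members, miR-21-5p, miR-142-5p and miR-142-3p, the groups overlapped. The scaled signals of miR-142-3p were 5.64, 7.75 and 4.93 against 7.63 and 6.68, with the lower mean in the flagellin group (log2 difference −0.25). miR-155-5p and miR-146a-5p are known to rise on Toll-like receptor signalling. None of these miRNAs passed limma's test (adjusted p = 0.650 for miR-155-5p and miR-146a-5p, 0.859 for miR-223-3p). A separation with every flagellin array above both medium arrays was found for 35 of the 307 miRNAs tested (11.4%). The dendritic cell label itself has no defining miRNA in these lists.

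Of the X-linked relatives, both guides were detected on all 5 arrays and neither passed the test. miR-322-5p had total gene signals of 243, 245 and 144 with flagellin and of 210 and 190 with medium, with flagellin array 3 the lowest. Its difference was 0.06 (SE 0.13, 95% confidence interval −0.29 to 0.40, limma adjusted p = 0.928). miR-503-5p had 21.8, 26.4 and 9.86 against 18.6 and 11.5. On these total gene signals its groups overlapped, and its difference was 0.32 (SE 0.34, 95% confidence interval −0.59 to 1.22, limma adjusted p = 0.859). The shorter of its probes passed on 3 arrays only, which raised the sum there. On the longer probe alone, which passed on all 5, the difference was 0.28 with an exact permutation p of 0.2 (n = 3 and 2). Scaled, that probe was higher on each flagellin array than on either medium array, but unscaled it was lowest on flagellin array 3. How many other probes separated in this way was not counted. Their passenger arms, miR-322-3p and miR-503-3p, were detected on no array.

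Over the 5 tested members the median difference was 0.14, beside 0.01 over all 307 miRNAs, and 4 of the 5 were positive, beside 159 of 307 (51.8%). The members share RNA samples and, for the miR-15/16 guides, the same deviation of flagellin array 3, so this is a description of these arrays.

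The miRNAs outside the family whose pattern over the 5 arrays was most like a member's were found by the root mean square difference of log2 values, each miRNA centred on its own mean, among 273 detected on all arrays. For miR-15a-5p they were miR-106b-5p (0.0129), miR-140-5p (0.0166) and miR-27a-3p (0.0328), where the median miRNA stood at 0.208. For miR-15b-5p they were miR-22-3p (0.0165), miR-185-5p (0.0307) and miR-467a-5p (0.0334), and for miR-16-5p miR-28-5p (0.0197), miR-30e-3p (0.0218) and miR-151-5p (0.0220). For miR-15b-3p they were miR-221-3p (0.0401), miR-98-5p (0.0472) and miR-7a-5p (0.0480). Within the family, miR-15a-5p and miR-15b-5p differed by 0.0401, miR-15b-5p and miR-16-5p by 0.0473, miR-15a-5p and miR-16-5p by 0.0790, and miR-15b-3p from the guides by 0.0848 to 0.134. For each of these guides several miRNAs outside the family were nearer.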

How the data were processed

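Total RNA of 5 BMDC samples was labelled with Cy3 and hybridised to 1-colour Agilent mouse miRNA arrays. The authors deposited scanner intensity files made with Agilent Feature Extraction (10.7.3.1 per the file headers) and a table of log2 values, which the data showed to be the log2 total gene signal less 1 constant per array. The rule for total gene signals was checked and gave 5610 of 5610 values within a relative tolerance of 0.001. Signals were scaled, raised to a floor of 0.0121 and tested with limma 3.58.1 in R 4.3.3 (Benjamini-Hochberg over 307 miRNAs detected on at least 2 arrays), after the script was tested on simulated data. Single probes and ratios had exact permutation tests, in Python 3.11.15. Members, lists and tests were chosen with earlier results of these data known. Text names all members, other miRNAs of the array that share the guide seed, the X-linked relatives, the 3 nearest miRNAs by pattern, and the lineage lists. Alternatives covered scaling, floor, filter, test, probe-level signals, slide position, replicate number and leaving out each array. Deviations from group means correlated at −0.04 and −0.08 between same-numbered arrays. The deviations of 2 medium arrays mirror each other, so crossed pairs gave 0.04 and 0.08. These correlations therefore cannot decide whether labelled replicate numbers pair the arrays, and they were not treated as pairs in the main test.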

Additional observations from a re-analysis of the deposited data

How the results depend on the processing

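No family member had an adjusted p under 0.05 under any of the 19 alternatives run for limma's test, and the lowest was 0.179 (miR-15a-5p, without flagellin array 3). The differences of miR-15a-5p, miR-15b-5p and miR-16-5p ranged from 0.07 to 0.32, 0.09 to 0.33 and 0.00 (quantile normalization) to 0.33. That 0.00 was fixed in advance, since quantile normalization gives equal ranks equal values and miR-16-5p had the same rank on every array. Scaling to the percentile of all mouse miRNAs moved the median miRNA to 0.19. The sign of miR-195-5p turned with a floor 10 times lower (−0.97), in the authors' value table (−1.42) and with arrays left out (−0.30 to 0.60). That of miR-15b-3p turned under scaling over all miRNAs (0.10), no scaling (0.045, where the floor raised the signals of flagellin array 3 and medium array 2, against −0.034 on its probe with no floor), quantile normalization (0.15), normexp at probe level (0.0098) and with arrays left out (−0.076 to 0.043). With a replicate block the differences were 0.24 for miR-15a-5p, 0.22 for miR-15b-5p, 0.18 for miR-16-5p, 0.60 for miR-195-5p and 0.0087 for miR-15b-3p, and no call changed. These differences are the same as those without flagellin array 3. No medium array carries its replicate number, so the block takes that array out of the comparison. Among all miRNAs, 2 were called in the main setting. That count was 4 with the lower floor or the authors' table, 1 with detection on all arrays, no filter, the trended prior or array column as a random block, and 0 with the other scalings, probe-level signals, array row or replicate block, and 0 to 1 with arrays left out. The miR-15b guide-to-passenger ratio differed by 0.17 on the brightest probes and by 0.09 to 0.23 with arrays left out. The other 116 of 145 recomputed values neither changed sign nor crossed a threshold, counting miR-16-5p at 0.00. The cause of these shifts was not tested. With 3 and 2 arrays, confidence intervals of about 1.3-fold remain for miR-16-5p, and a probe signal below 3 errors cannot be told from background. For the longer probe of miR-195-5p that limit differed by array, from 4.77 units on flagellin array 3 to 6.56 on flagellin array 2.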
